A study of Schizosaccharomyces pombe with 80 samples.

Results

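The cytosolic ribosomal protein genes of fission yeast (Schizosaccharomyces pombe) were taken as the protein-coding genes on chromosomes I to III whose symbol starts with rpl or rps followed by a digit, which gave 131 of 5113 coding genes. Of these, 76 were rpl genes (large, 60S subunit) and 55 were rps genes (small, 40S subunit), and the annotation names 129 products as 60S or 40S ribosomal proteins. The exceptions were rpl44, named as a protein of the L28e family, and rpl701, named as an L7-like subunit of RNase MRP, and neither carried a peak in any sample. Genes of mitochondrial ribosomal proteins were not members and served as one of the comparison lists. The study used ChIP-seq of histone H3 dimethylated at lysine 9 (H3K9me2) to ask whether a block to RNA polymerase II elongation places heterochromatin at new sites, and 75 lists of H3K9me2 peaks were examined for these genes, 1 per library.

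All isolates of the main experiment were grown at 30 °C and lacked epe1, whose product opposes H3K9 methylation. In 13 epe1Δ tfs1DN isolates tfs1DN, a dominant-negative allele of the gene for the elongation factor TFIIS, was integrated at leu1 under the thiamine-repressible nmt1 promoter and held in thiamine, so that the allele was expressed only through leaky repression. In 15 epe1Δ-vc isolates the same plasmid without tfs1DN was integrated. The 12 epe1Δ ago1Δ tfs1DN isolates also lacked Argonaute, the RNAi effector, and the 15 seb1-1 epe1Δ tfs1DN isolates also carried the seb1-1 allele of an RNA-binding protein of the 3′ end processing machinery. Each isolate was grown from 1 colony of transformants, so each of the 55 isolates is 1 clone. Parents without the plasmid were sequenced beside them (3 epe1Δ, 3 epe1Δ ago1Δ and 1 seb1-1 epe1Δ), together with 2 pfs2-11 and 2 pfs2+ samples at 37 °C and 9 input samples made without antibody.

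Isolates that share a parent and an input are called a batch here. The epe1Δ tfs1DN isolates came in 2 such batches, isolates 1 and 13 in the first and isolates 2 to 12 in the second. The ago1Δ isolates came in 3 sets, and each other group formed 1 batch, so group and batch cannot be told apart between groups. The list of the first-batch parent held 0 peaks and was not used. The lists gave no read totals, and the mean coverage of chromosome I was the only measure of depth: 11.6 to 11.9 in the first tfs1DN batch, 3.28 to 12.3 in the second, 1.70 to 6.52 in epe1Δ-vc, 12.7 to 33.6 in ago1Δ and 17.5 to 46.1 in seb1-1 isolates. The number of peaks in an isolate ran from 118 to 669 in the second tfs1DN batch, with a median of 341, against 75 and 83 in the first batch, 43 to 83 in epe1Δ-vc, 29 to 58 in ago1Δ and 58 to 88 in seb1-1. Its parent, which carries no tfs1DN, held 337 peaks. The second tfs1DN batch therefore stood apart from all other groups, and results that rest on it are given with that batch, its parent and the first batch side by side.

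Ribosomal protein genes are among the most strongly transcribed genes of a growing yeast cell, and their products, with the ribosomal RNAs, build the particles that translate messenger RNA. Most of the proteins are encoded in fission yeast by more than 1 gene, with the copies at separate places in the genome. H3K9me2 is laid down in this yeast by Clr4, the only H3K9 methyltransferase, and marks the silent chromatin of centromeres, chromosome ends and the mating-type region, which are regions of low transcription. Transcription of ribosomal protein genes in fission yeast is tied to a pair of promoter elements called HomolD, which takes the place of a TATA box, and HomolE.

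The promoter windows of 6 ribosomal protein genes with recurrent peaks are shown because they set side by side gene copies with and without an exact match to the core letters of these elements (RefSeq, ASM294v3; 250 bases before to 50 bases after the annotated gene start, 5′ to 3′ on the gene's strand). Capitals mark exact matches, on either strand, to the HomolD core letters CAGTCACA or the HomolE core letters CCCTACCCT.
rpl401: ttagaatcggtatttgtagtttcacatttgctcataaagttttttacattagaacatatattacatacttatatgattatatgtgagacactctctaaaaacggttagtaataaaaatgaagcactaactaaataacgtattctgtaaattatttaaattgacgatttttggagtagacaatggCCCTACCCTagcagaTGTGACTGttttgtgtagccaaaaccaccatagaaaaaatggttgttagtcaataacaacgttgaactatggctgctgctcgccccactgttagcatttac
rpl402: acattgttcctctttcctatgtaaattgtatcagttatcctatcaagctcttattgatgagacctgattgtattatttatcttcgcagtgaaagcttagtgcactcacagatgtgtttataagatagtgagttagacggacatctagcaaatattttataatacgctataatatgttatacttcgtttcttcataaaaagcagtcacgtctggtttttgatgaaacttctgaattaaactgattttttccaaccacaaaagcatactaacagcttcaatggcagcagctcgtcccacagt
rpl301: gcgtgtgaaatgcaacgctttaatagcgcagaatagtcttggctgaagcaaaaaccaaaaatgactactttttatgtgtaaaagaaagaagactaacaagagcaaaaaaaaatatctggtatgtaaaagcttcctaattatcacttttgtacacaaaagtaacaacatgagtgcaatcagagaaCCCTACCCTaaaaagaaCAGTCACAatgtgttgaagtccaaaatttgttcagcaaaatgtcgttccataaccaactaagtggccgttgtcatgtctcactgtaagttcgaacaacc
rpl302: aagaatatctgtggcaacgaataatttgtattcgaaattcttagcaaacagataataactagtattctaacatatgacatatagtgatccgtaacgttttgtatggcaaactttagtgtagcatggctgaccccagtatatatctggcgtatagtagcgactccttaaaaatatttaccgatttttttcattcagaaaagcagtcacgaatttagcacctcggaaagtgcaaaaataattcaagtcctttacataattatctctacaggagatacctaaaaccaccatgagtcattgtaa
rps001: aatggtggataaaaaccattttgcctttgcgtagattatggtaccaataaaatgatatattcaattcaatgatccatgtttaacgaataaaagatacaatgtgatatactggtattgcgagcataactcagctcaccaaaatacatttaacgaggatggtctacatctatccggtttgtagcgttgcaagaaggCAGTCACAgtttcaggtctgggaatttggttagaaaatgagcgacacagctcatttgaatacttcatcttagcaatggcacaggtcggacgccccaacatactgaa
rpl13: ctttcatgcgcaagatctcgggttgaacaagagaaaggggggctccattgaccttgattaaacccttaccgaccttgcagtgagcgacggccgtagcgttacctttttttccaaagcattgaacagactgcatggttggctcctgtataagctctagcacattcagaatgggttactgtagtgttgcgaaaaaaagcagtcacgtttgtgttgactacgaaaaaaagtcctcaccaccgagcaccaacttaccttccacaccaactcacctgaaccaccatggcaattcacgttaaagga

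The rpl401 and rpl402 genes encode the same protein, uL4, and so do rpl301 and rpl302 for L3. The rpl401 window held HomolE letters beginning 66 bases and HomolD letters beginning 51 bases before the gene start, and the rpl301 window held them 66 and 49 bases before it. The windows of rpl402, rpl302 and rpl13 held neither exact match, and that of rps001 held HomolD letters 56 bases before the start. With 1 letter allowed to differ, a setting chosen after the data were seen, the rpl402, rpl302 and rpl13 windows each held 7 of the 8 HomolD letters, and such a match stood in 97.7% of ribosomal protein windows and 16.2% of the windows of all coding genes. Over the 131 ribosomal protein genes, 84 windows (64.1%) held the HomolD letters and 47 (35.9%) the HomolE letters, against 2.68% and 1.53% of the windows of all coding genes. The shares lay close together in genes that did and did not carry H3K9me2 in the second tfs1DN batch, with no test made: HomolD letters stood in 60% of the 45 windows of genes with a peak and in 66.3% of the 86 windows of genes without, and HomolE letters in 35.6% and 36.0%. A match says only that the letters are in the window.

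H3K9me2 peaks over ribosomal protein genes were common in a single batch and rare elsewhere. A gene was counted as carrying a peak where at least 1 base of it lay under a peak of the list. In the 11 second-batch epe1Δ tfs1DN isolates between 5 and 45 ribosomal protein genes carried a peak, with a median of 14. Isolate 2 had 5, isolates 5 and 7 had 8 each, isolate 3 had 12, isolate 8 had 13, isolate 12 had 14, isolate 4 had 15, isolates 6 and 10 had 17 each, isolate 11 had 20 and isolate 9 had 45. As shares of the 131 genes these were 3.82% at the lowest, 10.7% at the median and 34.4% at the highest, beside 1.73%, 5.14% and 10.7% of the 4982 other coding genes. The ribosomal protein share was above the share of other genes in each of the 11 isolates, by 2.09 percentage points in isolate 2, 5.93 at the median and 23.7 in isolate 9.

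The parent of that batch, which carries no tfs1DN, had a peak over 17 ribosomal protein genes (13%) and over 5.08% of other coding genes, values that lay inside the range of its isolates. Both first-batch isolates had 0 ribosomal protein genes with a peak, against 1.38% and 1.57% of other genes. Among the 15 epe1Δ-vc isolates 12 had 0 and isolates 3, 5 and 12 had 1 each, with 1.30% to 2.35% of other genes under a peak. The 12 ago1Δ isolates had 0 to 2 (median 1) and the 15 seb1-1 isolates 0 to 3 (median 1), beside medians of 1.24% and 1.97% of other genes. The ribosomal protein genes of the vector parent, of the 3 ago1Δ parents, of the pfs2-11 and pfs2+ samples and of the 9 inputs carried 0 peaks, and the seb1-1 parent carried 2, over rpl1002 and rpl1001.

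**Figure D1:**
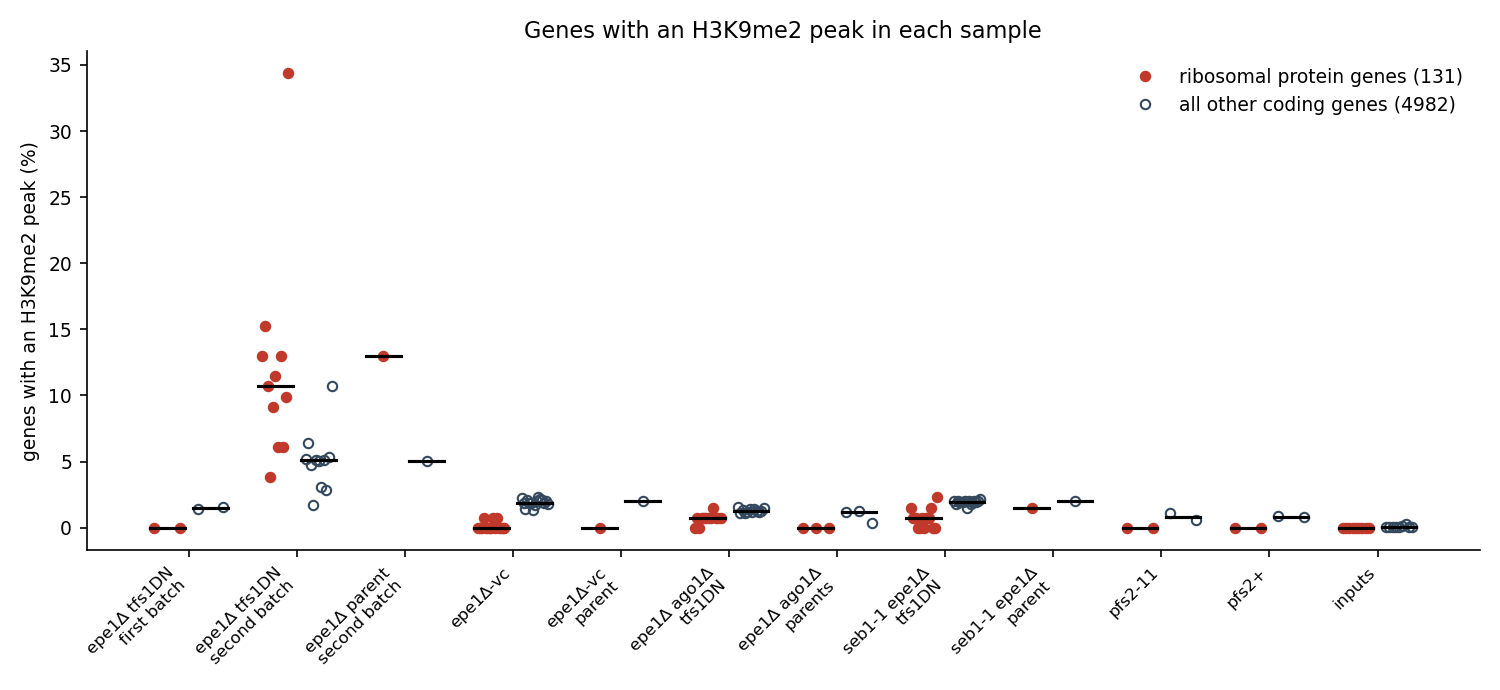
Percent of genes with an H3K9me2 peak (vertical axis) in each sample, by group. Filled red points are the 131 ribosomal protein genes, open points the 4982 other coding genes, and bars the group medians. The second tfs1DN batch (median 10.7% against 5.14%) and its parent (13% against 5.08%) are the places where the red points lie above the open ones as a group, and isolate 9 stands alone at 34.4%.

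Because cells were pooled from a culture, a peak of modest height cannot tell a mark present in few cells from a weak mark in all of them. Isolate 9, with the most ribosomal protein genes, had the lowest chromosome I coverage of the second batch (3.28), and isolate 2, with the fewest, had the highest (12.3). The part of coverage in these counts was not tested. As a share of each isolate's own peaks, peaks over ribosomal protein genes made up 3.20% at the lowest, 3.90% at the median and 6.73% in isolate 9.

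Among the 131 genes, 85 had no peak in any of the 55 isolates and 46 (35.1%) had one, beside 14.6% of other coding genes. Of the 46, 45 carried a peak in at least 1 second-batch tfs1DN isolate, beside 12.3% of other coding genes. In that batch 23 of the 45 had a peak in isolate 9 and in no other isolate. Without isolate 9 the second batch held 22 ribosomal protein genes with a peak. Only 4 ribosomal protein genes had a peak in any of the 44 isolates of the other batches, namely rpl401, rpl1002, rpl1001 and rps1802. Genes with a peak in the parent recurred in more isolates. All 17 of them had one in at least 1 isolate of its batch, in a median of 8 isolates. The genes with a second-batch peak that the parent lacked had a median of 1 isolate. Some of these recurred too, among them rpl1002 and rpl8 in 5 isolates each and rps602 in 4. In isolate 2 all 5 genes were also in the parent, in isolate 6 this held for 15 of 17, in isolate 11 for 15 of 20 and in isolate 9 for 17 of 45.

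**Figure D2:**
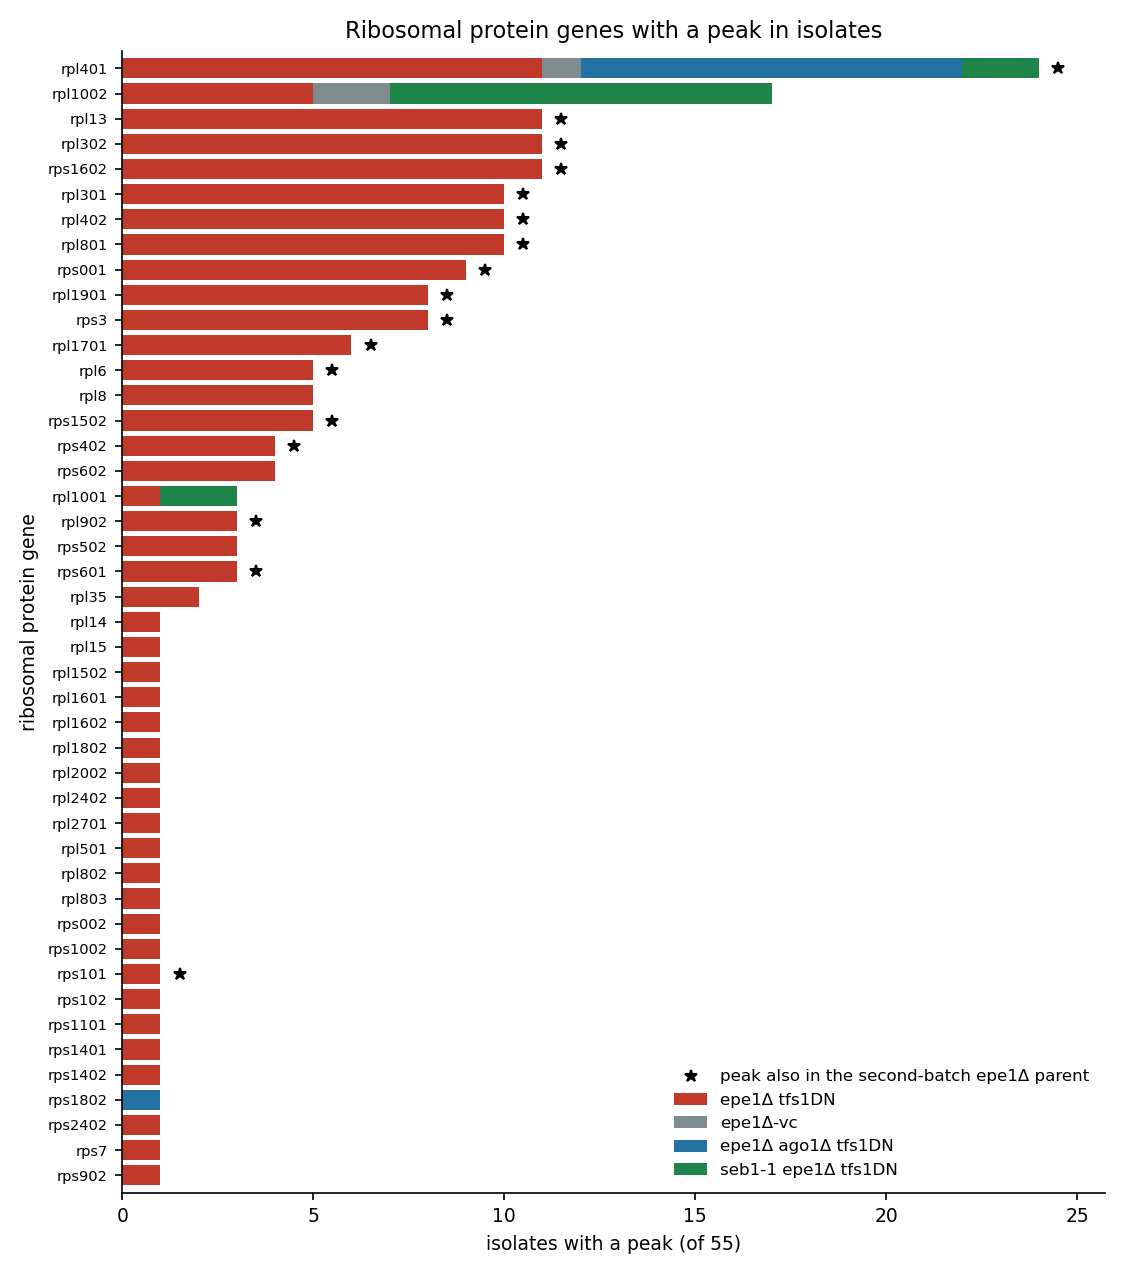
Number of isolates, of 55, with an H3K9me2 peak over each of 45 of the 46 ribosomal protein genes that had one (horizontal axis), coloured by group, with a star where the second-batch parent also had a peak. The bars of rpl13, rpl302 and rps1602 stop at 11 isolates and are red throughout, while those of rpl401 (24) and rpl1002 (17) mix groups.

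The 4 genes with a peak in all 11 second-batch isolates were rpl401, rpl13, rpl302 and rps1602. For rpl302 (chromosome I, 4917555 to 4919027, minus strand), which encodes L3, a protein that reaches towards the peptidyl transferase centre, mean coverage in the peak was 3.61 times that of the chromosome at the lowest (isolate 2), 4.20 times at the median and 5.24 times at the highest (isolate 9), and 3.82 times in the parent. Its copy rpl301 (chromosome I, 1756085 to 1757330, plus strand) had a peak in 10 isolates, all but isolate 2, with folds of 3.12 to 4.20 (median 3.62) and 3.48 in the parent. The peaks over both copies were low, little above the floor of the lists, whose lowest fold was 3.00.

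The rpl3 copies share sequence, and reads that fit both can be placed at either. Words of 40 bases that occur more than once in the genome made up 67.0% of rpl301 and 56.4% of rpl302, so a peak over one copy cannot be told apart from a peak over the other in those stretches, and whether both copies were marked is not known. By contrast such words made up 0.324% of rpl401 and 0 of rpl13, rps001 and rps3, whose peaks could be placed. Over all members, 23 of the 45 genes with a second-batch peak and 24 of the 86 without had any repeated word.

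The uL4 protein lines the tunnel through which the growing chain leaves the ribosome. Its gene rpl401 (chromosome II, 2143120 to 2144391, plus strand) carried a peak in all 11 second-batch isolates with folds of 3.54 to 4.97 (median 3.70), and 3.59 in the parent. The second copy, rpl402 (chromosome II, 3636475 to 3637673, minus strand), had one in 10, with folds of 3.09 to 4.12 (median 3.29). Next in order among large-subunit genes were rpl801 (uL2, a protein beside the peptidyl transferase centre; chromosome I, 4250595 to 4251437) in 10 isolates, at folds of 3.03 to 4.18, and rpl1901 (L19, which makes a bridge to the small subunit; chromosome II, 4123056 to 4123747) in 8, at folds of 3.11 to 4.13. The peaks of both stayed close to the floor of the lists, with medians of 3.36.

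A single peak joined a large-subunit and a small-subunit gene. The divergent neighbours rpl13 (eL13; chromosome I, 1711185 to 1712043, plus strand) and rps1602 (uS9, which touches the transfer RNA in the P site; chromosome I, 1710473 to 1711082, minus strand) lay under the same peak in each of the 11 isolates. Its fold was 3.34 in isolate 2, 4.25 at the median and 5.79 in isolate 9, the highest of any second-batch peak over a ribosomal protein gene, and its length was 738 to 1276 bp (median 1051). In the parent the shared peak reached a fold of 4.21 over 1096 bp. It covered the start of rpl13 in all 11 isolates, unlike most peaks of the batch, and the bases between both starts lie in the rpl13 window printed above.

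Among small-subunit genes, rps001 (uS2, added late to the maturing subunit in budding yeast; chromosome II, 2778905 to 2779942, plus strand) had a peak in 9 isolates at folds of 3.04 to 3.65. The rps3 gene (uS3, at the entry of the messenger RNA channel; chromosome II, 4238212 to 4239339) had one in 8 at 3.15 to 3.97. Both genes also had a peak in the parent.

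The parent carried peaks over 7 further genes, which recurred in fewer isolates. Among large-subunit genes, rpl1701 (L17, a protein of the exit tunnel) had one in 6 isolates at folds of 3.18 to 3.54, rpl6 (eL6) in 5 at 3.05 to 3.76 and rpl902 (L9) in 3 at 3.16 to 3.48. Among small-subunit genes, rps1502 (uS19) had one in 5 at 3.06 to 3.49, rps402 (eS4) in 4 at 3.14 to 3.70, rps601 (S6, a protein phosphorylated in response to nutrients) in 3 at 3.00 to 3.85 and rps101 (eS1) in isolate 9 alone, at 3.00. The subunits had close shares of marked genes: 26 of 76 rpl genes (34.2%) and 19 of 55 rps genes (34.5%) had a peak in at least 1 second-batch isolate, and 13.2% and 12.7% in the parent. Of other coding genes, 12.3% had a peak in at least 1 second-batch isolate and 5.08% in the parent.

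The copies of one protein often differed. Among the 54 families of 2 or more genes, every copy had a second-batch peak in 10, some but not every copy in 16 and no copy in 28, and 6 of the 19 single-gene families had one. Both copies of rpl4 had a peak in 10 or 11 isolates, whereas rps1602 had a peak in 11 and rps1601 in 0, rpl1901 in 8 and rpl1902 in 0, rpl1701 in 6 and rpl1702 in 0, and rps001 in 9 and rps002 in 1. These are numbers of isolates and were not compared by a test between copies.

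The peaks were short, and those over a single gene lay mostly inside it. In the second batch 166 peaks overlapped ribosomal protein genes, with lengths of 51 to 2616 bp (median 496.5) and folds of 3.00 to 5.79 (median 3.31), and 134 of them covered 1 ribosomal protein gene and no other coding gene. The 2500 peaks of the same isolates over other coding genes more than 10 kb from centromeres, chromosome ends and the mating-type region had a median length of 377 bp and a median fold of 3.20, with folds of up to 8.73, so neither kind of peak rose far above the floor of the lists in most cases. Of the 134, 131 had their centre within the gene, 119 between 25% and 75% of its length, and 109 lay wholly inside it. The median centre was 461.5 bp from the gene start, at 46.3% of the gene's length. Leaving out peaks that reach a second gene favours positions inside the gene, and over all 178 pairs of a gene and a peak the median centre was at 44.9%. The gene start was under the peak in 44 of these pairs, so most peaks did not reach the promoter windows.

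**Figure D3:**
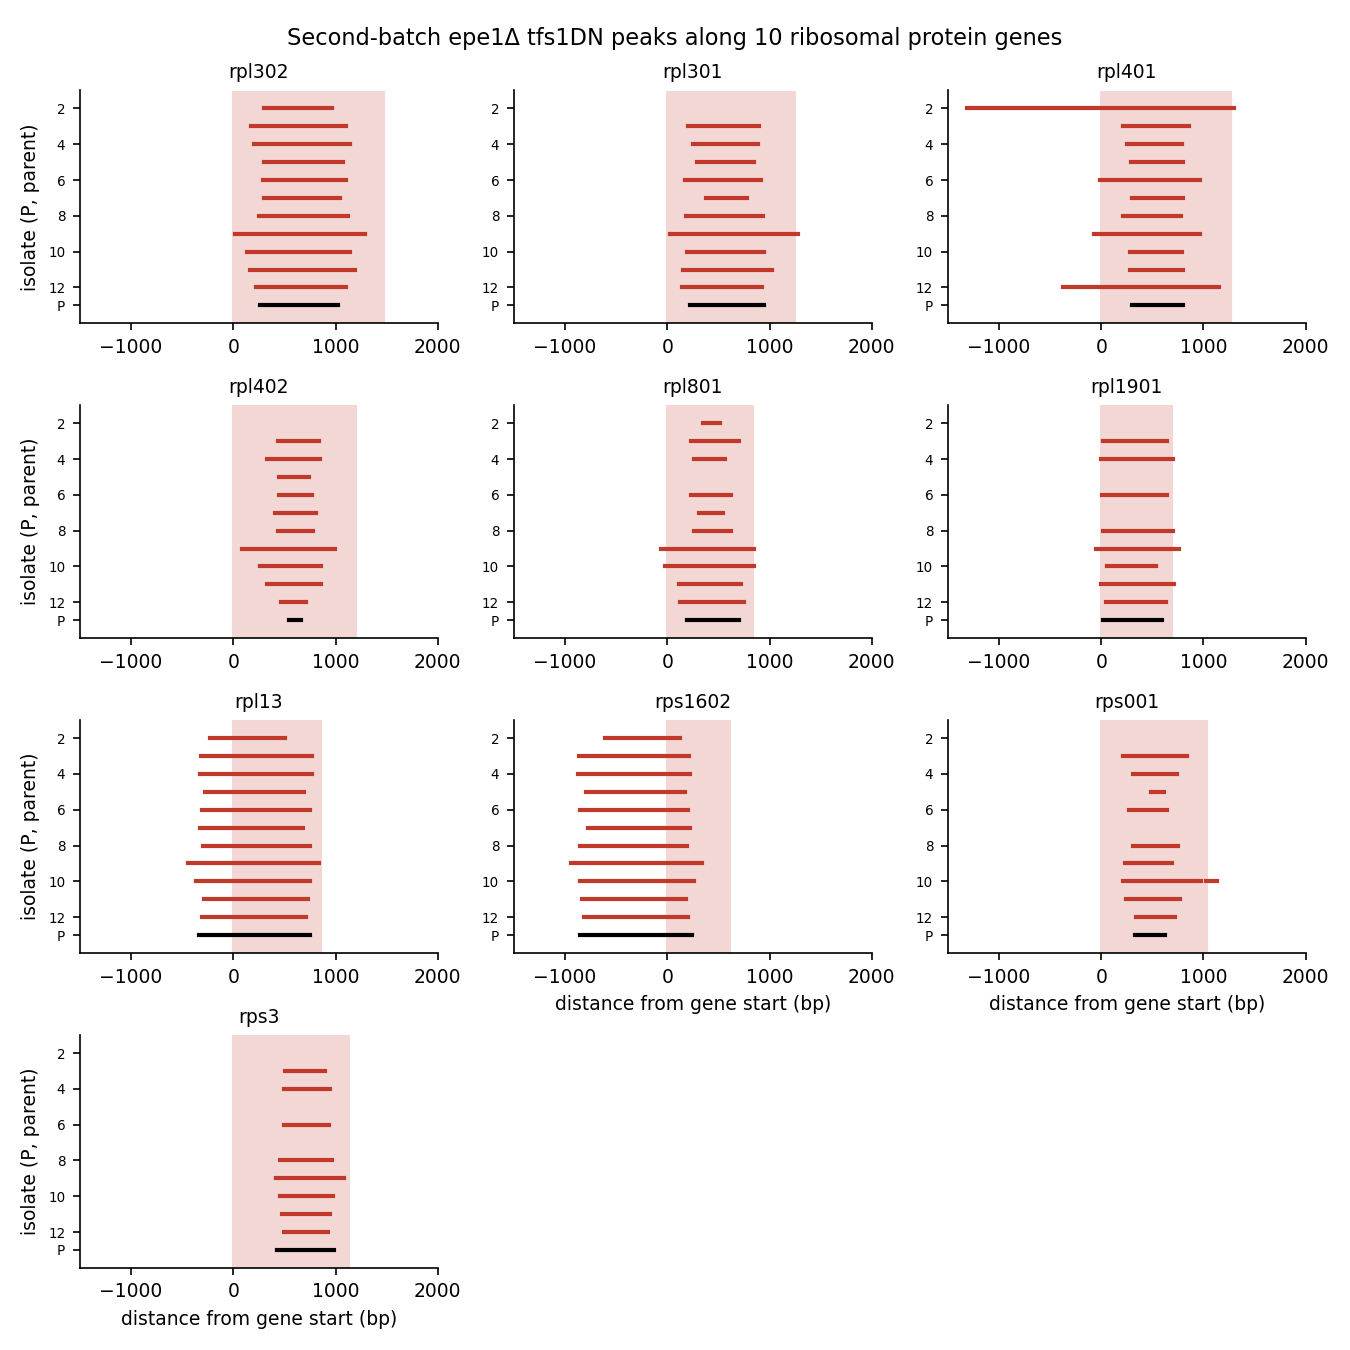
Position of each second-batch tfs1DN peak (red lines, 1 row per isolate; black, the parent P) along 10 ribosomal protein genes, as distance from the gene start in bp, with the gene shaded. Lines sit mostly over the gene bodies. At rpl13 and rps1602 1 shared peak spans both starts. The peak also covers the gene start in 4 isolates at rpl401, in 2 at rpl801 and in 2 at rpl1901.

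Longer genes carried the peaks more often. The 45 ribosomal protein genes with a second-batch peak had a median length of 843 bp (542 to 1473) and the 86 without one a median of 641.5 bp. With the 131 genes split by length into 3 classes of about equal number, the shortest (285 to 605 bp) had a peak in 0% at the lowest, 0% at the median and 13.6% at the highest over the 11 isolates, the middle class (606 to 798 bp) in 2.33%, 6.98% and 34.9%, and the longest (799 to 2698 bp) in 9.09%, 25% and 54.5%. Other coding genes of the same lengths, more than 10 kb from the constitutive regions, had medians of 0%, 1.69% and 3.96%. The parent showed the same order, with 0%, 9.30% and 29.5% of ribosomal protein genes and 0%, 1.69% and 3.62% of others. Ribosomal protein genes are shorter than other coding genes (median 686 bp against 1805 bp), so the comparison with all other genes sets short genes against longer ones.

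Isolate counts were then compared between groups for each coding gene by Fisher's exact test (two-sided), with Benjamini-Hochberg adjustment over all 5113 genes and a threshold of 0.05. The comparisons share the vector or the tfs1DN isolates with each other. Against epe1Δ-vc, 11 ribosomal protein genes (8.40%) carried a peak in more epe1Δ tfs1DN isolates and 0 in fewer. Over all coding genes 3.40% were called higher and 0.685% lower. At an unadjusted p under 0.05 the counts were 17 ribosomal protein genes (13%) higher and 0 lower, against 4.97% of all genes higher and 1.29% lower. The genes rpl13, rpl302 and rps1602 had a peak in 11 of the 13 epe1Δ tfs1DN isolates and in 0 of the 15 with the vector (adjusted p = 0.000395, Fisher's exact test), and rpl301, rpl402 and rpl801 in 10 and 0 (adjusted p = 0.00127). For rpl401 the numbers were 11 and 1 (adjusted p = 0.00306), for rps001 9 and 0 (0.00395) and for rpl1901 and rps3 8 and 0 (0.0122), by the same exact test.

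All of these tfs1DN isolates belonged to the second batch, and 10 of the 11 called genes also carried a peak in its parent without tfs1DN. With peaks that overlap a peak of the own parent left out, 0 ribosomal protein genes were called, beside 0.0978% of all genes higher, and 4 (3.05%) stood higher at an unadjusted p under 0.05 by the same exact test, beside 2.25% of all genes. First-batch isolates kept every peak in that setting, because their parent's list held 0. With all peaks kept, the count of called genes was 10 in place of 11 without isolate 9 (7.63%, beside 2.78% of all genes). It fell to 4 (3.05%, beside 0.430% of all genes) when cover of 50% or more of the gene was asked for, to 2 (1.53%, beside 0.352%) with peaks of at least 1 kb and to 5 (3.82%, beside 0.861%) with folds of at least 3.37, the median of isolate peaks. The difference between tfs1DN and vector isolates therefore cannot be told apart from the difference between this batch and the others.

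Against epe1Δ-vc, 0 ribosomal protein genes were called in the ago1Δ isolates by Fisher's exact test, in either direction, beside 0% of all genes higher and 0.117% lower. At an unadjusted p under 0.05 only rpl401 stood out, with a peak in 10 of 12 ago1Δ isolates and 1 of 15 vector isolates (exact p = 7.69e-05, adjusted p = 0.0561), and 0.117% of all genes were higher at that level. In the seb1-1 isolates 0 were called in either direction, beside 0.567% of all genes higher and 0.489% lower. Here rpl1002, with 10 of 15 against 2 of 15, was the only ribosomal protein gene at an unadjusted p under 0.05 (exact p = 0.00778, adjusted p = 0.612), and this share of 0.763% lay beside 0.802% of all genes.

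Against epe1Δ tfs1DN, the ago1Δ isolates carried a peak less often over 7 ribosomal protein genes (5.34%) and more often over 0, beside 2.19% of all genes lower and 0.254% higher. At an unadjusted p under 0.05 the count was 15 lower (11.5%) and 0 higher, beside 4.48% and 0.567% of all genes. The 7 were rpl13, rpl302 and rps1602 (0 of 12 against 11 of 13, adjusted p = 0.00246 by Fisher's exact test), rpl301, rpl402 and rpl801 (0 against 10, adjusted p = 0.00680) and rps001 (0 against 9, adjusted p = 0.0192). The call on rps001 was lost without tfs1DN isolate 9 (adjusted p = 0.0560) and without ago1Δ set 1 (0.0680, exact test). None of the 7 was called without set 2 (adjusted p = 0.0552 to 0.198, exact test), beside 0.215% of all genes lower. Without set 3, 3 were called, beside 0.685%. The 7 genes had a peak in 0 ago1Δ isolates of any set. Leaving out a set therefore lowered the number of isolates compared and not the number with a peak. The seb1-1 isolates were lower over 11 ribosomal protein genes and higher over 0, beside 3.21% of all genes lower and 0.900% higher, with 17 lower (13%) and 0 higher at an unadjusted p under 0.05, beside 4.87% and 1.17% of all genes. These were the same 11 genes as against the vector, among them rpl401 with 2 of 15 against 11 of 13 (adjusted p = 0.0121 by Fisher's exact test). With peaks shared with the own parent left out, 0 ribosomal protein genes were called in either comparison. Of all genes, 0% were then called lower in ago1Δ isolates and 0.0978% in seb1-1 isolates. At an unadjusted p under 0.05 by the exact test, 3 ribosomal protein genes were lower in ago1Δ isolates (2.29%, beside 1.58% of all genes). There 1 was higher (0.763%, beside 0.254%), and 4 were lower in seb1-1 isolates (3.05%, beside 2.13%). The other settings that end calls against the vector ended calls here too. For ago1Δ 2, 0 and 4 genes stayed called with cover of 50%, lengths of 1 kb and folds of 3.37, beside 0.293%, 0.235% and 0.606% of all genes. For seb1-1 the counts were 4, 2 and 5, beside 0.332%, 0.293% and 0.763%.

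Outside the second tfs1DN batch, 2 ribosomal protein genes lay under long, high peaks, each near a region of constitutive heterochromatin. The gene rpl401 lies 6396 bp from the mating-type region. In 10 of the 12 ago1Δ isolates a peak of 7597 to 8481 bp covered it whole, at folds of 5.63 to 7.69, starting between 2136900 and 2137301 and ending between 2144897 and 2145380 on chromosome II. It was present in 1 of 3 isolates of set 1 (isolate 6), in 5 of 5 of set 2 and 4 of 4 of set 3, and in 0 of the 3 ago1Δ parents. The folds of set 2 were 5.66 to 7.39 and those of set 3 5.63 to 7.48, so these sets overlapped, and the single peak of set 1 lay above both at 7.69. The paper reports that some ago1Δ parents had reduced H3K9 methylation at constitutive heterochromatin, which their tfs1DN isolates then acquired. Sets 2 and 3 hold those isolates. Of other coding genes, 0.341% lay under a peak in the set 3 parent, beside 1.18% and 1.26% in the parents of sets 1 and 2. Absence of the peak from the parents does not show a gain particular to rpl401. Whether the rpl401 peak came with a wider return of the mark was not tested. Elsewhere rpl401 peaks were short: 411 bp at a fold of 3.09 in vector isolate 5, 157 and 326 bp at 3.05 and 3.14 in seb1-1 isolates 6 and 9, and 499 to 2616 bp in the second tfs1DN batch.

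The other gene was rpl1002 (L10, known from budding yeast to join the large subunit late; chromosome I, 3744146 to 3744906, plus strand), which lies 7076 bp from centromere 1. Its peak ran on into the centromere in vector isolates 12 and 3 and in the seb1-1 parent. The full lengths were 20898, 21058 and 21205 bp in this order, at folds of 65.8, 56.5 and 20.6. These peaks covered 51.6%, 73.6% and 100% of the gene. Their folds are means over the whole peak, most of which lies outside the gene. Of the 10 seb1-1 isolates with a peak there, 8 had one of 20686 to 28219 bp at folds of 11.9 to 20.3, and isolates 5 and 15 had peaks of 654 and 946 bp at 3.24 and 3.59. In 5 second-batch tfs1DN isolates the rpl1002 peak was short (319 to 873 bp, folds 3.07 to 3.60), like the rest of that batch. Of the rpl1002 bases under these 5 peaks, 78.4% to 90.1% occur elsewhere in the genome. Under the short peaks of seb1-1 isolates 5 and 15 the shares were 72.5% and 81.0%. In those stretches the signal cannot be told apart from reads of the copy rpl1001. Among peaks that reach rpl1002, those of the vector isolates thus had the highest folds, which describe mostly bases outside the gene. The seb1-1 parent without tfs1DN held one with a length inside the range of the long peaks of its isolates.

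The copy rpl1001 (chromosome II, 2081481 to 2082343) had peaks of 137 to 539 bp at folds of 3.01 to 3.33 in 4 samples: tfs1DN isolate 9, the seb1-1 parent and seb1-1 isolates 1 and 9. Each of these also had an rpl1002 peak, and 76.6% to 92.8% of the rpl1001 bases under them occur elsewhere in the genome, so the rpl1001 signal cannot be told apart from reads of rpl1002. The last gene of the other batches, rps1802 (uS13; chromosome III, 1032876 to 1033481), was touched over 2.31% of its length by the edge of a peak of 6580 bp at a fold of 5.38 in ago1Δ isolate 11. No other isolate had a peak over it.

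**Figure D4:**
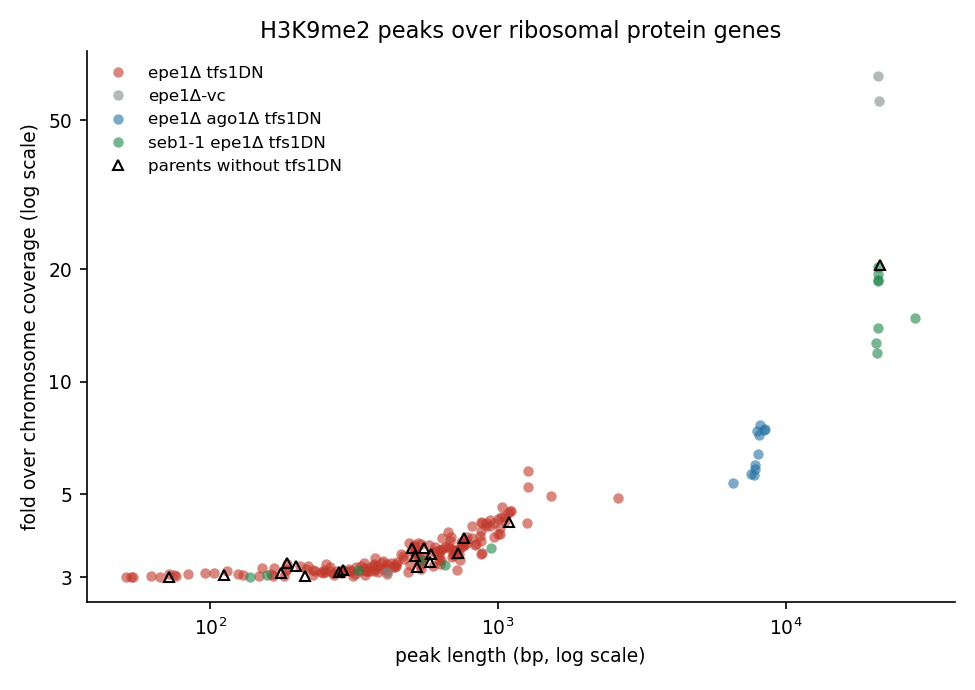
Length (horizontal, log scale, bp) and fold over the mean coverage of the chromosome (vertical, log scale) of every H3K9me2 peak over a ribosomal protein gene, coloured by group, with parents as open triangles. The tfs1DN peaks and those of the second-batch parent form 1 cloud up to 2616 bp and a fold of 5.79, the rpl401 peaks of ago1Δ isolates lie near 8 kb, and the long rpl1002 peaks of vector and seb1-1 samples lie beyond 20 kb.

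Ribosomal protein genes were not the genes most often marked in the second batch. Of 16 glycolysis and fermentation genes a median of 62.5% per isolate carried a peak (18.8% to 87.5%), of 15 translation factor genes 46.7% (13.3% to 60%) and of 6 chaperone genes 66.7% (16.7% to 83.3%), against 10.7% of the ribosomal protein genes. The values of the parent were 62.5%, 46.7% and 50%. Among 14 ribosome assembly genes the median was 14.3%. Of the 7 genes of the acidic P-stalk proteins, the flexible arm of the large subunit that recruits translation factors, a median of 0% carried one, and 57.1% at the highest. None of the 59 mitochondrial ribosomal protein genes had a peak in that batch or its parent. The lists were not matched for gene length, and the part of length in these shares was not tested. Against the vector, 8 of 16 glycolysis and fermentation genes were called higher by Fisher's exact test adjusted over all genes, 7 of 15 translation factor genes, 4 of 6 chaperone genes and 2 of 14 ribosome assembly genes, against 11 of 131 ribosomal protein genes and 3.40% of all genes. None of the P-stalk or mitochondrial ribosomal protein genes was called there in either direction, and in each list 0 genes were called lower. In the seb1-1 isolates 1 P-stalk gene, rpp202, carried a peak in all 15 at folds of 17.3 to 37.6 and was called higher against the vector, while 0 of the other lists' genes were called in that comparison. Their parent without tfs1DN also had a peak over rpp202, at a fold of 27.0, and low peaks stood there in the input of that batch (3.54), in 1 first-batch tfs1DN isolate (3.66) and in 1 pfs2-11 sample (3.03 and 3.04).

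**Figure D5:**
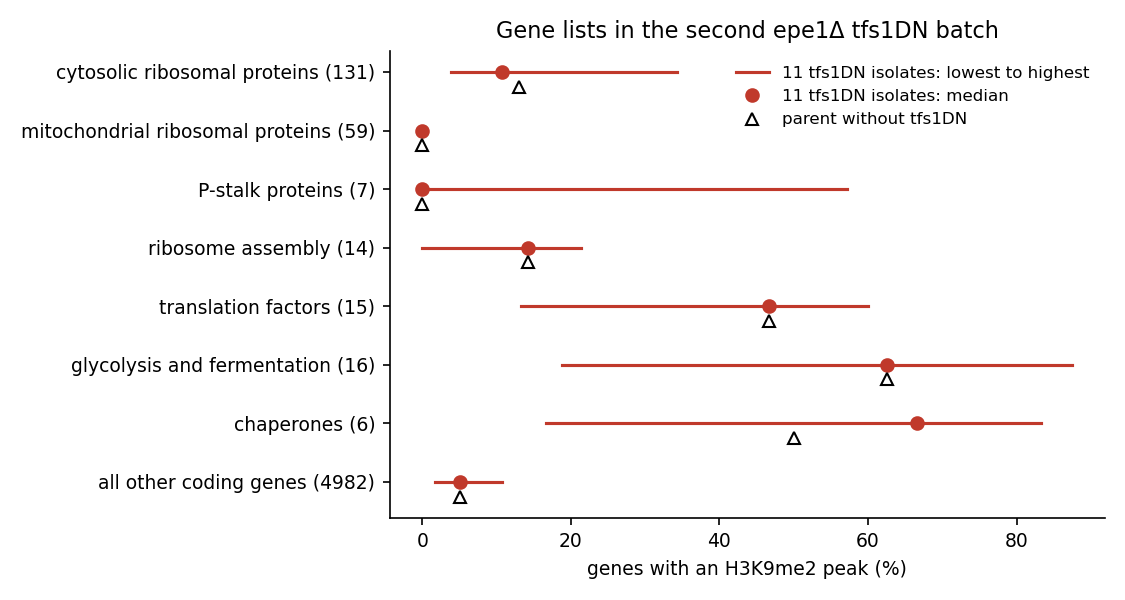
Percent of the genes of each list with an H3K9me2 peak (horizontal axis) in the second tfs1DN batch: red points are medians of 11 isolates, lines run from the lowest to the highest isolate, and triangles mark the parent without tfs1DN. Cytosolic ribosomal protein genes (median 10.7%) lie above all other coding genes (5.14%) and below the translation factor, glycolysis and chaperone lists, and mitochondrial ribosomal protein genes lie at 0.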

How the data were processed

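H3K9me2 ChIP-seq peak lists of 75 of the 80 samples were examined, and 5 RNA polymerase II samples were not analysed here. Adaptors were trimmed and reads shorter than 20 nt dropped by the authors, who aligned the rest to ASM294v2 with Bowtie in a mode that places a read with several best matches at 1 of them, smoothed over 1 kb and called peaks in each library, and their notes also name SAMtools and bedtools (versions and peak caller not given in the sources used here). The deposited lists give mean coverage (a signal, not scaled between samples and not corrected for input) of each peak and of its chromosome. The fold used here is the first divided by the second. The 7203 peaks had folds of at least 3.00 and lengths of at least 51 bp, so marks below that height do not appear, and the lists give no read totals.

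Genes came from the RefSeq annotation of ASM294v3, whose chromosomes I to III hold every peak, and a gene carried a peak where they shared at least 1 base. Only the presence of a peak in each isolate was tested, by Fisher's exact test (SciPy 1.17.1, with pandas 2.3.3, NumPy 2.4.6 and Python 3.11.15), after the script was tested on simulated data. Isolates are clones, and the tests pooled them across batches, so p-values mix differences within batches with differences between batches. Shares of ribosomal protein genes per sample were described without a test. Constitutive heterochromatin was taken as the centromeres (span of pfs2+ peaks of at least 5 kb), the mating-type region (pfs2+ peaks within 10 kb of the mat genes), and the outer 100 kb of chromosomes I and II and 50 kb of chromosome III. Named were the 12 ribosomal protein genes with peaks in the most isolates, called genes, those under the longest or highest peak of a group, and up to 10 of those with peaks in parents, pfs2 or input samples (ties left this open, so every one is named), and other genes named in lists or pairs of copies were chosen after their values were seen. The values of 1 gene that the rule names are not reported here, although counts over all members include it. Members, lists and tests were chosen with earlier results of these data known. Alternatives changed the overlap, the peak length and fold, the gene extent, the set of genes tested, the parent and input treatment, the batch and a replicate block.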

Additional observations from a re-analysis of the deposited data

Results flagged for a closer look

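The difference between the share of ribosomal protein genes and the share of other coding genes with a peak was above 0 in every second-batch epe1Δ tfs1DN isolate (median 5.93 percentage points). It was below 0 in both first-batch isolates of the same genotype (median -1.48) and in every epe1Δ-vc isolate (median -1.87). These opposite directions drew attention to the second batch, and the difference was not tested. The parent of that batch, without tfs1DN, had 7.90 percentage points.

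Among the 9 inputs, input 7 lay far from the others, with a difference of -0.281 percentage points: 0% of ribosomal protein genes and 0.281% of other genes were under its peaks. Chance alone sets apart about 1 in 20 groups in this way.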

How the results depend on the processing

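The median difference between the shares of ribosomal protein and other genes in epe1Δ tfs1DN isolates was 4.54 percentage points (SD 6.29, n = 13). It turned to -0.220 with peaks shared with the own parent left out. First-batch isolates kept every peak in that setting, because their parent's list held 0. In the first batch alone the median difference was -1.48. In epe1Δ-vc it was -1.87, and moved to -1.43 with at least 50% of the gene covered, -1.10 without peaks shared with the input, -0.201 without those shared with the parent, -0.314 against other genes over 10 kb from constitutive heterochromatin and -0.990 in bases. In ago1Δ isolates -0.471 turned to 0.462 (parent), 0.512 (distant genes) and 0.526 (bases), and in seb1-1 isolates -1.22 moved to -0.301 (parent) and -0.353 (bases) and turned to 0.554 (distant genes). In pfs2-11 and pfs2+ samples, leaving out either replicate gave -1.08 to -0.562 and -0.863 to -0.783.

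Called ribosomal protein genes numbered 11 against the vector in epe1Δ tfs1DN isolates, and 4 with at least 50% of the gene covered, 2 with peaks of at least 1 kb, 5 with folds of at least 3.37 (the median of isolate peaks) and 0 without peaks of the own parent. Beside these, 3.40% of all genes were called higher in the main setting, then 0.430%, 0.352%, 0.861% and 0.0978%. For seb1-1 against tfs1DN the ribosomal protein counts were likewise 4, 2, 5 and 0. Of all genes 3.21% were called lower in the main setting, then 0.332%, 0.293%, 0.763% and 0.0978%. For ago1Δ against tfs1DN 7 became 2, 0, 4 and 0, and the 2.19% of all genes called lower became 0.293%, 0.235%, 0.606% and 0%. The count was 11 when only genes with a peak were tested (beside 3.93% of all genes), 0 without set 2 (0.215%) and 3 without set 3 (0.685%). For ago1Δ against the vector 0 became 1, rpl401, under the 50%, 1 kb and fold settings, with coding sequence extents, with only genes with a peak and without set 1. Of all genes 0.0196% to 0.0587% were called higher in these settings. For seb1-1 against the vector 0 became 1, rpl1002, with only genes with a peak (0.763%, beside 0.743% of all genes higher). With the parent's peaks left out the rpl401 difference turned to -6.67 percentage points (tfs1DN against vector) and 13.3 (seb1-1 against tfs1DN). Over these share differences and counts, 56 alternative values stayed close to the main one, 32 moved and 6 turned. Over the single genes 191 kept their side of the threshold, 130 lost their call, 7 gained one and 2, those of rpl401, turned. The causes were not tested.

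With a replicate block by isolate number, 0 ribosomal protein genes were called in each of the 5 comparisons. Of all genes 0 were called too, except 0.196% higher and 0.332% lower in seb1-1 against the vector. At an unadjusted p under 0.05, 12 (tfs1DN), 1 (ago1Δ) and 1 (seb1-1) were higher against the vector, beside 3.91%, 0.0587% and 0.782% of all genes. Against tfs1DN 11 (ago1Δ) and 12 (seb1-1) were lower, beside 3.93% and 3.76%. Isolate numbers only name isolates: same-numbered isolates had median correlations of -0.0472 to 0.0185 between groups. Without isolate 9 the counts of the comparisons with tfs1DN were 10, 6 and 10. Beside them 2.78% of all genes were higher against the vector, and 1.47% (ago1Δ) and 2.62% (seb1-1) were lower against tfs1DN. A mark under a fold of 3.00 does not appear in the lists. Coverage differed between batches, and its part in the counts was not tested.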
